A study of Mus musculus with 9 samples.

Results

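The group described here holds 5 interferon-induced genes, Parp14, Parp9, Dtx3l, Rtp4 and Batf2, taken by gene name from a table of 11148 rows. Each name matched 1 row, and all 5 rows had a mean of at least 1 RPKM (read density, that is reads over the length of the gene and the depth of the library) over the 9 libraries, the filter for testing, as did 3210 rows in all. Their means in T cell medium alone were also above 1 RPKM, so none passed through cytokine medium only.

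The cells were cultured mouse satellite cells, the stem cells of skeletal muscle, isolated from limb muscle of male and female pups aged 1 to 3 days, pooled, of the strain C57/BL6/DBA. They were grown on collagen in 3 media and sampled at 4 passages, with 1 library for each combination. The F10 group is a single library, from P0, for which no serum or FGF is stated. T cell medium (P0, P1, P2 and P15) is what the labels call a conditional medium, a 50:50 mix of T cell medium and F10 with 15% serum, plus FGF (2.5 ng/ml). Cytokine medium (the same passages) was F10 with 15% serum and the same FGF, to which IL-1α and IL-13 (5 ng/ml of each) as well as IFN-γ and TNF-α (10 ng/ml of each) had been added. Serum or FGF may thus differ from F10 medium along with the T cell medium or the cytokines, and their effects cannot be told apart. Cytokine medium also has no stated part of T cell medium. Between these 2 media, the lack of that part and the added cytokines cannot be told apart, nor can the cytokines from each other. The labels do not say whether the libraries of a medium came from separate cultures, so p-values measure the spread between these libraries only.

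Interferons bind receptors on the cell surface and act through JAK kinases and transcription factors, which switch on a shared set of genes. IFN-γ, made by activated T cells, acts mainly at GAS elements, while type I interferons also act at the ISRE. Parp14 and Parp9 belong to the macrodomain-containing ADP-ribosyltransferases. Dtx3l encodes a ubiquitin ligase of the Deltex family that pairs with the Parp9 protein. Rtp4 encodes a receptor-transporting protein that is a known interferon-stimulated gene, and Batf2 encodes a basic leucine zipper transcription factor induced by IFN-γ in macrophages.

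Parp14, Dtx3l and Parp9 are neighbours on mouse chromosome 16 (GENCODE vM21 on mm10). Parp14 lies at 35832874 to 35871544 on the minus strand. Dtx3l follows at 35926511 to 35939151, also on the minus strand, 54966 bp from the end of Parp14. Parp9 lies at 35938470 to 35972605 on the plus strand and is transcribed away from Dtx3l. The exons of Dtx3l and Parp9 share 458 bp, 8.0% of the annotated exon bases of Dtx3l and 9.4% of those of Parp9. Whether counting used the strand is not stated in these sources, so reads in that stretch cannot be assigned to 1 of the genes. Rtp4 is also on chromosome 16, at 23520291 to 23614222 on the plus strand, and Batf2 is on chromosome 19, at 6140983 to 6172476 on the plus strand. Rtp4 shares 296 exon bases with Gm45338, a transcript on the same strand, Batf2 shares 51 with Arl2 on the opposite strand, and Parp14 shares 110 with Gm49730.

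The start region of Dtx3l is shown because Parp9 starts in the same window on the other strand and both genes had nearly the same levels in every library. Of the 5 genes, Dtx3l had an entry in the promoter table used here. The sequence is from RefSeq on GRCm38.p6 and covers chr16:35938978-35939277 on the minus strand, from 250 bases before to 50 after the start of Dtx3l. Capitals mark GAAACT, letters found in binding sites of interferon regulatory factors.
Dtx3l: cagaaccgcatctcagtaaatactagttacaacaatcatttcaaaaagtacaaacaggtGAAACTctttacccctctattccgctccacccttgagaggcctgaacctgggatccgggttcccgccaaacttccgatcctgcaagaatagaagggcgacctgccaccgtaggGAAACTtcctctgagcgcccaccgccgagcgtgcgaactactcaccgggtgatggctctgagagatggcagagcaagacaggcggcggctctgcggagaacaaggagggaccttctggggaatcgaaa
GAAACT, searched on both strands, was found at bases 60 to 65 and 173 to 178 of the window, counted from its 5′ end. Of 32851 promoter windows of this length, 15.8% hold GAAACT on either strand. Searched on both strands too, the longer ISRE core (GAAA, any 2 bases, GAAA, in 3.44% of windows), the GAS element (TTC, any 3 bases, GAA, in 8.3%) and a κB element (GGGA, any 2 bases, TTCC, in 1.47%) had no match in these 300 bases, which says only that these letters are not in this window. In GENCODE, Dtx3l starts at base 127 of this window, and a protein-coding transcript of Parp9 starts at base 267 and runs in the opposite direction. These matches describe the letters and are not measured binding sites.

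The names of the 5 rows were considered usable, although most names in the table were not. Names were used from the start of a chromosome up to the last gene that earlier work on this table had named, which gave 749 rows. Usable names were inferred in this way, and the name check of the earlier work was not rerun. Among these, 18 of 19 rows of ribosomal, proteasome and similar families reached a mean of 1 RPKM, against 44 of 155 elsewhere (28.4%). The earlier work had used the same values, so this share is a description. Of 20 marker genes of satellite cells, T cells, macrophages, fibroblasts and endothelium, 11 were in the table and 0 lay among usable names, so the labelled cell type was not checked. Estimated depth was 12.95 to 18.2 M reads in the first of the 2 deposited columns per sample and 11.9 to 16.8 M reads in the second.

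The RPKM of the 5 genes were exact whole multiples of the value of 1 read in all columns, which gave the reads behind each value. The gene lengths recovered in this way were 9306 bp for Parp14, 4872 for Parp9, 5724 for Dtx3l, 1573 for Rtp4 and 2522 for Batf2. They equal the annotated exon length for Parp14, Parp9 and Batf2 and are 1 bp shorter for Dtx3l. For Rtp4 the length is that of 1 of its annotated transcripts, while all annotated exons make 2131 bp. Reads per gene in the second column ran from 2 (Batf2, F10 medium) to 4728 (Parp14, cytokine medium at P1). Intervals given below are 95% exact binomial intervals (Clopper-Pearson) on these reads and cover counting error only.

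All 5 genes were lowest in the F10 library and higher in every library of the other media. Of the 3210 rows, 16.3% had all 4 T cell libraries above the F10 library. The share with the cytokine libraries above it as well was not computed. Levels are RPKM, the mean of both columns of a sample, and are per length, so genes may be compared. Rtp4 is an exception, as its length was 1573 bp and not the 2131 bp of all its annotated exons. A longer length would lower its RPKM, so its rank among the genes may depend on it.

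Parp14, an ADP-ribosyltransferase, was at 0.0912 RPKM in F10 medium, a level that rested on 12 reads. The T cell libraries P0, P1, P2 and P15 gave 4.52, 6.19, 7.72 and 6.35 RPKM. The cytokine libraries, in the same order, gave 20.6, 30.1, 28.7 and 18.1. Every cytokine library was above every T cell library, and the lowest cytokine level was that of P15.

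Parp9, a macrodomain protein that binds ADP-ribose, was at 0.341 RPKM in F10 medium. Its levels in order of passage were 6.57, 7.62, 10.2 and 8.34 RPKM with T cell medium, against 15.0, 17.2, 19.7 and 19.0 with cytokines. The media did not overlap, and the cytokine libraries lay within 1.31-fold of each other, the narrowest range of the 5 genes.

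Dtx3l, the ligase partner of Parp9, was at 0.346 RPKM in F10 medium. With T cell medium the 4 passages gave 6.81, 6.52, 9.19 and 7.10 RPKM, and with cytokine medium 13.1, 18.2, 18.9 and 16.5. Here too the media did not overlap, and P2 was the highest passage in both.

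Rtp4 had the highest F10 level of the group, 2.04 RPKM. By passage it gave 8.45, 15.9, 17.3 and 12.9 RPKM with T cell medium, and 10.9, 17.4, 25.4 and 27.9 with cytokine medium. The media overlapped for this gene, because the cytokine library at P0 lay below the T cell libraries at P1, P2 and P15.

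Batf2 had 0 reads in 1 F10 column and 2 in the other, a mean of 0.0293 RPKM. By passage the T cell libraries gave 1.62, 3.14, 1.84 and 3.14 RPKM, while the cytokine libraries gave 6.97, 16.6, 20.9 and 11.3. The media did not overlap, and the cytokine levels spread more than those of the other genes, with a coefficient of variation of 43.7% over passages.

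**Figure D1:**
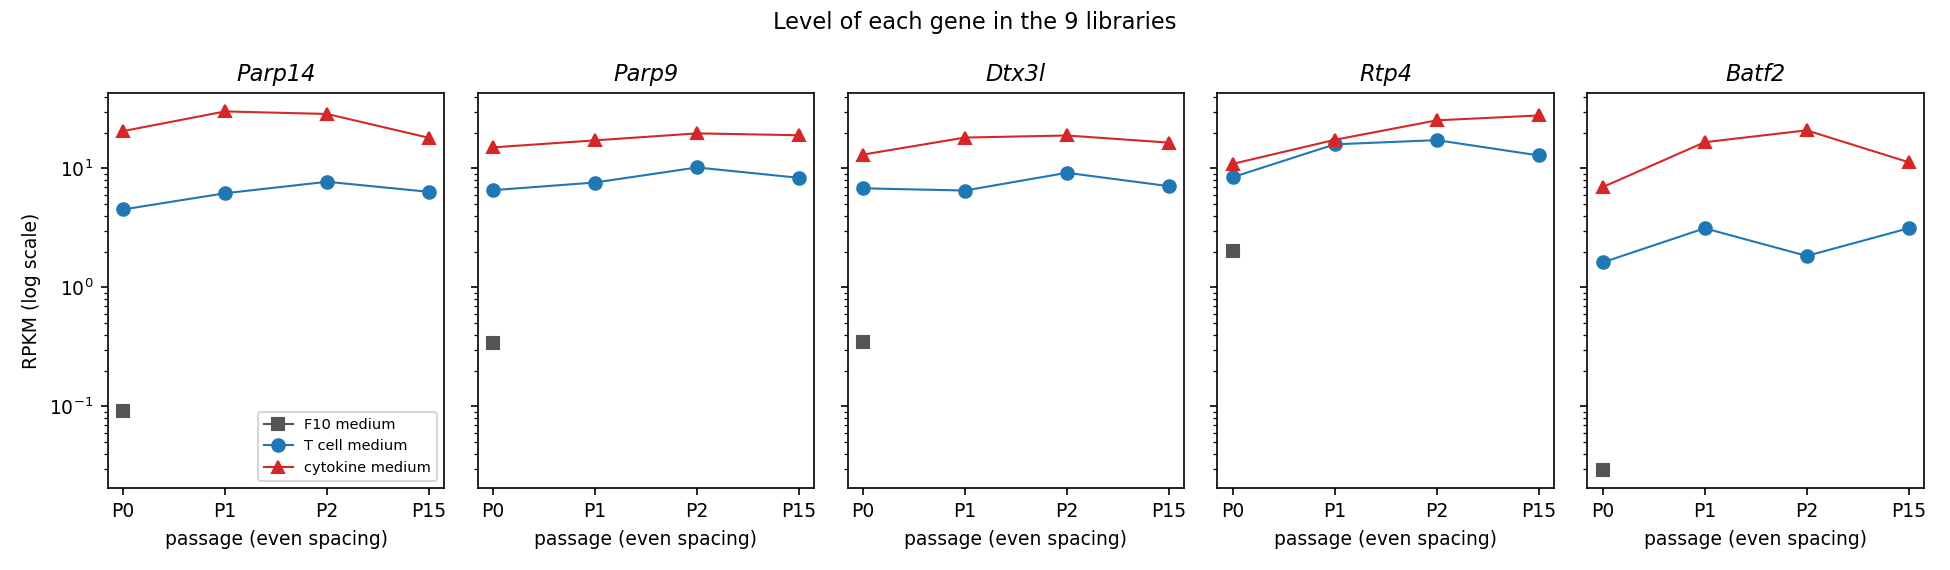
RPKM (log scale) of each gene by passage, with F10 medium as a grey square, T cell medium as blue circles and cytokine medium as red triangles, 1 point per library, with lines joining the passages of a medium. The F10 square is the lowest point in each panel, and the red and blue points overlap in level for Rtp4 only.

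The order of the genes within a library changed with the medium. In F10 medium it was Rtp4, Dtx3l, Parp9, Parp14 and Batf2 from high to low, and the highest level was 69.8 times the lowest. Dtx3l and Parp9, at 0.346 and 0.341 RPKM, were all but equal there. In all 4 T cell libraries Rtp4 was the highest at the length used for it, Parp14 next to the lowest and Batf2 the lowest. By their means over the T cell libraries (± SD, n = 4), Parp9 (8.18 ± 1.53 RPKM), Dtx3l (7.40 ± 1.21) and Parp14 (6.20 ± 1.31) followed each other, and neighbours in this order differed by less than 1 SD. Parp9 and Parp14 differed by more than that, and Parp14 was below Parp9 in each T cell library. In cytokine medium Parp14 was the highest at P0, P1 and P2, and Rtp4 at P15. At P2 in cytokine medium the 5 genes lay closest together, with a highest level 1.52 times the lowest. By their cytokine means the order was Parp14 (24.4 ± 5.94 RPKM), Rtp4, Parp9 (17.7 ± 2.09), Dtx3l (16.7 ± 2.60) and Batf2, and each gene differed from the next by less than the larger of their SDs.

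The first comparison set the T cell library at P0 against the F10 library. All 5 genes were at least 2-fold higher on the log2(RPKM + 1) scale, as were 1.62% of the 3210 rows. The fold over F10 medium, from reads, was 48.4 for Parp14 (27.5 to 94.2), 19.3 for Dtx3l (13.2 to 29.4) and 18.9 for Parp9 (12.4 to 30.2). Batf2 had a fold of 27.6 in the second column, with an interval of 7.25 to 234 from 2 reads in F10 medium, and the first F10 column had 0 reads. From the means of both columns the fold of Batf2 was 55.4, above the 49.6 of Parp14, so the order of these genes turned with the column. Rtp4 had the smallest fold, 4.18 (2.97 to 6). With 1 library per medium these folds have no replicate check. Total RNA of a culture was measured, so a change in the number of cells of a type and a change in RNA per cell cannot be told apart.

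In cytokine medium at P0 all 5 genes were again at least 2-fold above F10 medium, against 2.18% of rows. The fold in the second column was 218 for Parp14 (125 to 423), 115 for Batf2 (31.6 to 959), 43.3 for Parp9 (28.7 to 68.7), 36.0 for Dtx3l (24.8 to 54.4) and 5.58 for Rtp4 (4.02 to 7.90). From the means of both columns Batf2 had a fold of 238 and Parp14 of 226, so their order turned here too. Both comparisons use the same F10 library, so they are not independent. The low F10 reads set the width of the intervals, not the reads in the other media.

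**Figure D2:**
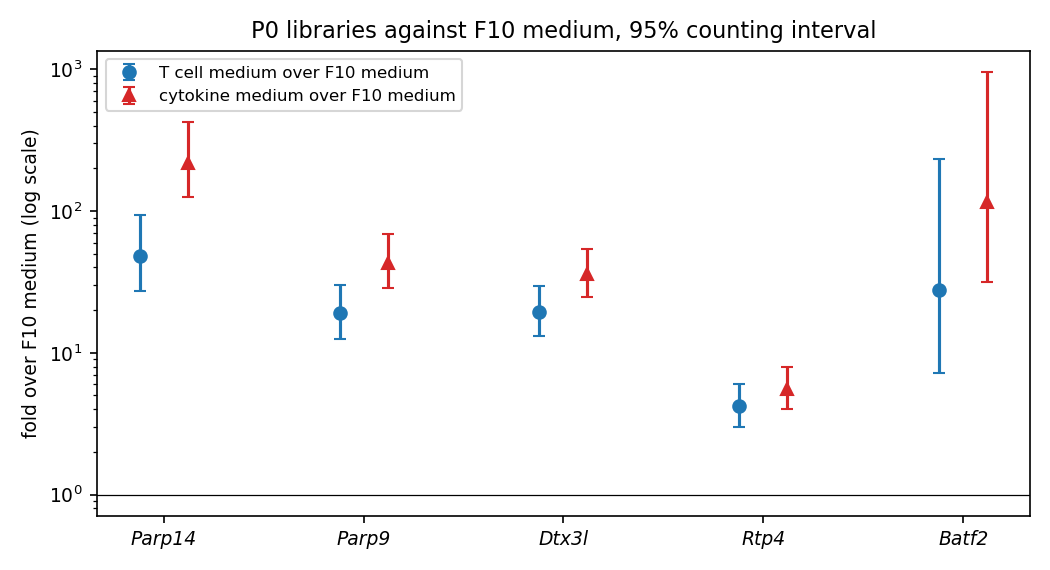
Fold over F10 medium at P0 (log scale) from reads of the second column, for T cell medium (blue circles) and cytokine medium (red triangles), with 95% counting intervals. The wide bars of Batf2 come from 2 reads in F10 medium, and Rtp4 has the smallest fold in both media.

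Cytokine medium was compared with T cell medium over the 4 passages, where the study has matched libraries. Parp14, Parp9, Dtx3l and Batf2 rose in cytokine medium, and Rtp4 did not pass. This is 4 of 5 genes, against 5.36% of rows called higher. All 4 cytokine libraries were above all 4 T cell libraries for the same 4 genes, as for 7.38% of rows. At 4 of 4 passages the cytokine library exceeded its T cell partner for all 5 genes, and so it did for 22.9% of rows. Their median difference was 1.07 on the log2(RPKM + 1) scale, where the median of all rows was 0.03. The genes were chosen with earlier results of these data known, so this count is a description.

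Batf2 averaged 13.9 ± 6.09 RPKM with cytokines against 2.44 ± 0.819 with T cell medium (SD, n = 4 passages), a log2 difference of 2.05 ± 0.22 (SE; limma adjusted p = 0.0109). Its call ended when P1 was left out (limma adjusted p = 0.0832, difference 2.04). Parp14 differed by 1.81 ± 0.12 (SE; limma adjusted p = 0.00146), Dtx3l by 1.07 ± 0.10 (limma adjusted p = 0.0045) and Parp9 by 1.04 ± 0.07 (limma adjusted p = 0.00146). Rtp4 averaged 20.4 ± 7.73 RPKM with cytokines against 13.6 ± 3.92 with T cell medium, a difference of 0.51 ± 0.15 (SE; limma adjusted p = 0.0694, unadjusted 0.0113). Without a filter on low values 0 of the 10934 rows passed in limma, where 843 rows had an unadjusted p under 0.05 in each direction, and the adjusted p of the 4 called genes ran from 0.0532 to 0.2.

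The fold of cytokine over T cell medium is given next for each passage, in the order P0, P1, P2 and P15. For Parp9 it was 2.29, 2.25, 1.93 and 2.33, and the 4 intervals overlapped. For Parp14 it was 4.52, 4.84, 3.73 and 2.84, and the P15 interval (2.62 to 3.08) lay below the others. For Rtp4 it was 1.33, 1.08, 1.46 and 2.19, and the P15 interval (1.89 to 2.53) lay above the others. At P1 the interval of Rtp4, 0.943 to 1.25, included 1, so no difference was detectable there at this depth. Dtx3l had folds of 1.86, 2.82, 2.06 and 2.36. Batf2 had 4.19, 5.46, 11.4 and 3.54, with the P2 value (8.90 to 14.7) above the rest, where T cell medium gave 71 reads. On the log2(RPKM + 1) scale 3 genes were at least 2-fold higher at P0 (not Dtx3l and Rtp4), 4 in the P1 libraries (not Rtp4), 2 in those of P2 (Parp14 and Batf2) and all 5 for P15. The shares of all rows were 0.81%, 1.18%, 1.62% and 0.374%.

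**Figure D3:**
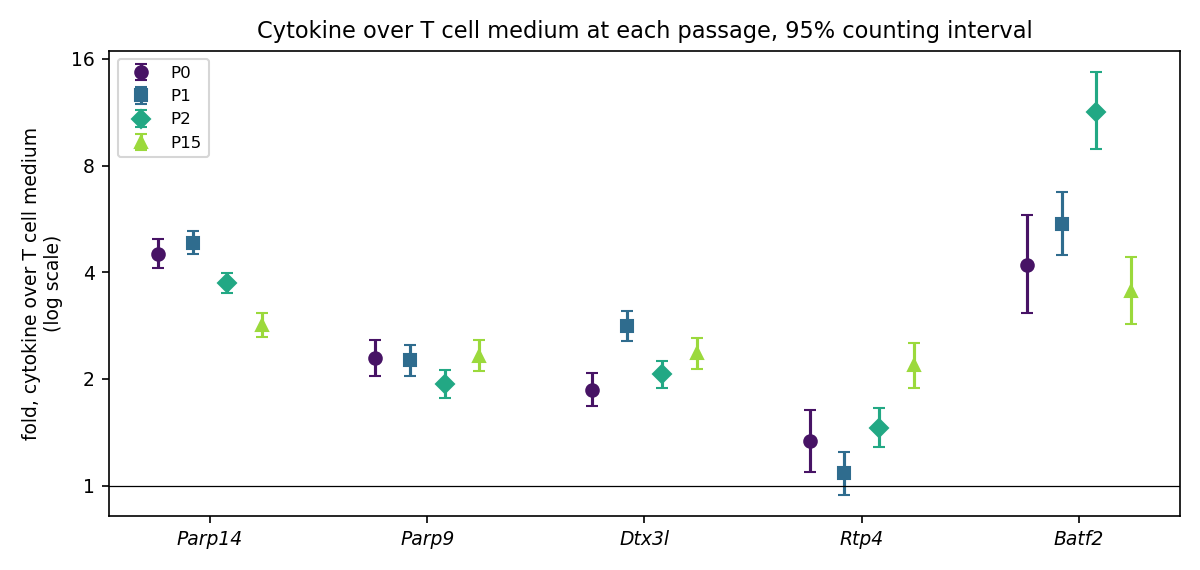
Fold of cytokine over T cell medium (log scale) for each gene at P0, P1, P2 and P15, from reads of the second column, with 95% counting intervals. Parp14 and Batf2 lie highest, Parp9 stays near 2 and Rtp4 is highest at P15.

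Whether the effect of the medium had another size at P15 than at P0 to P2 was tested next. None of the 5 genes passed (limma), and 0.218% of all rows passed. At an unadjusted p under 0.05 there were 2 of the 5 genes and 6.54% of all rows. The difference of Rtp4 went from 0.33 at the early passages to 1.06 at P15, a change of 0.73 ± 0.21 (SE; limma adjusted p = 0.516, unadjusted 0.012). That of Parp14 went from 1.95 to 1.38, a change of -0.57 ± 0.20 (limma adjusted p = 0.649, unadjusted 0.0246). The change of Batf2 was -0.65 ± 0.47, of Parp9 0.08 ± 0.17 and of Dtx3l 0.05 ± 0.23, with limma adjusted p of 0.867, 0.968 and 0.985. Without P2 the change of Batf2 was -0.28 and that of Parp9 0.018. P15 enters as 1 difference, so these errors hold no spread of P15.

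The level at P15 was also compared with P0 to P2 across both media. None of the 5 genes passed in limma, and 0.249% of rows did. At an unadjusted p under 0.05 there were 0 of the 5 genes and 19.2% of rows. The differences were 0.32 ± 0.34 (SE) for Rtp4, 0.09 ± 0.15 for Parp9, 0.08 ± 0.36 for Batf2, -0.03 ± 0.16 for Dtx3l and -0.22 ± 0.21 for Parp14. Those of Parp9 and Batf2 turned to -0.01 and -0.20 without P0, and that of Dtx3l to 0.08 without P2. For Rtp4 it was 0.023 without P0 and 0.55 without P2, and for Parp14 -0.39 and -0.11. At P15 all 5 genes were above their F10 level in both media, but F10 medium was sampled at P0 alone. The share of all rows for which this held was not computed.

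Within a medium, single passages were set against P0. In cytokine medium Batf2 was 2.43-fold higher at P1 (2.10 to 2.83) and 3.13-fold higher at P2 (2.70 to 3.63), and at P15 it was 1.65-fold higher (1.39 to 1.95). Rtp4 was 1.55, 2.27 and 2.49-fold higher at P1, P2 and P15. Parp14 was 1.46-fold higher at P1 (1.39 to 1.53) and 0.869 of its P0 value at P15 (0.820 to 0.921). On the log2(RPKM + 1) scale Batf2 was at least 2-fold above P0 at P1, as 0.218% of rows, Batf2 and Rtp4 at P2, as 0.748%, and Rtp4 at P15, as 1.28%. In T cell medium none of the 5 genes reached that at P1, P2 or P15, where 0.374%, 1.28% and 1.65% of rows did, and the largest fold was that of Rtp4 at P2, 2.08 (1.73 to 2.51). These are single libraries with no replicate check.

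Ratios between the genes within a library do not depend on how libraries were scaled. The 10 ratios were compared between the 4 T cell and 4 cytokine libraries by a two-sided exact permutation test, where the smallest p possible is 0.0286. Of these, 6 did not overlap between the media, each with an exact p of 0.0286 (0.0476 after Benjamini-Hochberg adjustment over the 10). The ratios share genes and are not independent of each other. They were compared after the values were seen. The share among other pairs of genes was not computed, so the count of 6 is a description. Among single rows, 11.1% differed between the media in limma, which is another measure and not a share of gene pairs. The permutation test of the ratios does not pair the libraries by passage. Paired by passage, the exact permutation test cannot go below 0.125 with 4 pairs, so none of the ratios could pass. Of the 10, 8 had the same direction in all 4 pairs, and the share among other pairs of genes was not computed for this either.

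The ratio of Parp14 to Parp9 was 0.268 with F10 medium, 0.688 to 0.812 with T cell medium and 0.951 to 1.75 with cytokine medium. Parp14 to Dtx3l went from 0.664 to 0.949 in T cell medium and from 1.10 to 1.66 in cytokine medium. Parp14 to Rtp4 was 0.388 to 0.535 and 0.648 to 1.88. The level of Parp14 was thus higher relative to these 3 genes in each cytokine library than in any T cell library.

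The ratio of Parp9 to Batf2 was 2.42 to 5.54 in T cell medium and 0.943 to 2.16 in cytokine medium. Dtx3l to Batf2 was 2.08 to 5.00 and 0.905 to 1.88, and Rtp4 to Batf2 was 4.09 to 9.40 and 1.05 to 2.47. Batf2 was therefore higher relative to Parp9, Dtx3l and Rtp4 in each cytokine library. The remaining 4 ratios overlapped. Parp14 to Batf2 differed by -0.50 on the log2 scale (SD over passages 0.76; exact permutation p = 0.2), and by -0.12 without P2. Parp9 to Rtp4 differed by 0.59 (SD 0.44; exact permutation p = 0.0857) and Dtx3l to Rtp4 by 0.63 (SD 0.53; exact permutation p = 0.114), which was 0.39 without P1. Both of these were higher with cytokines in 4 of 4 pairs.

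Parp9 and Dtx3l kept the most constant ratio. Parp9 to Dtx3l was 0.985 with F10 medium, 0.965 to 1.17 with T cell medium and 0.947 to 1.15 with cytokine medium. The difference in this ratio between the media was -0.04 on the log2 scale (SD 0.23; exact permutation p = 0.686). Over the 9 libraries the Pearson correlation of their log2(RPKM + 1) values was 0.996, and without F10 medium 0.982. Their shared exon bases, where a read may have been counted for either gene, touch this value, and the part of those reads was not tested.

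**Figure D4:**
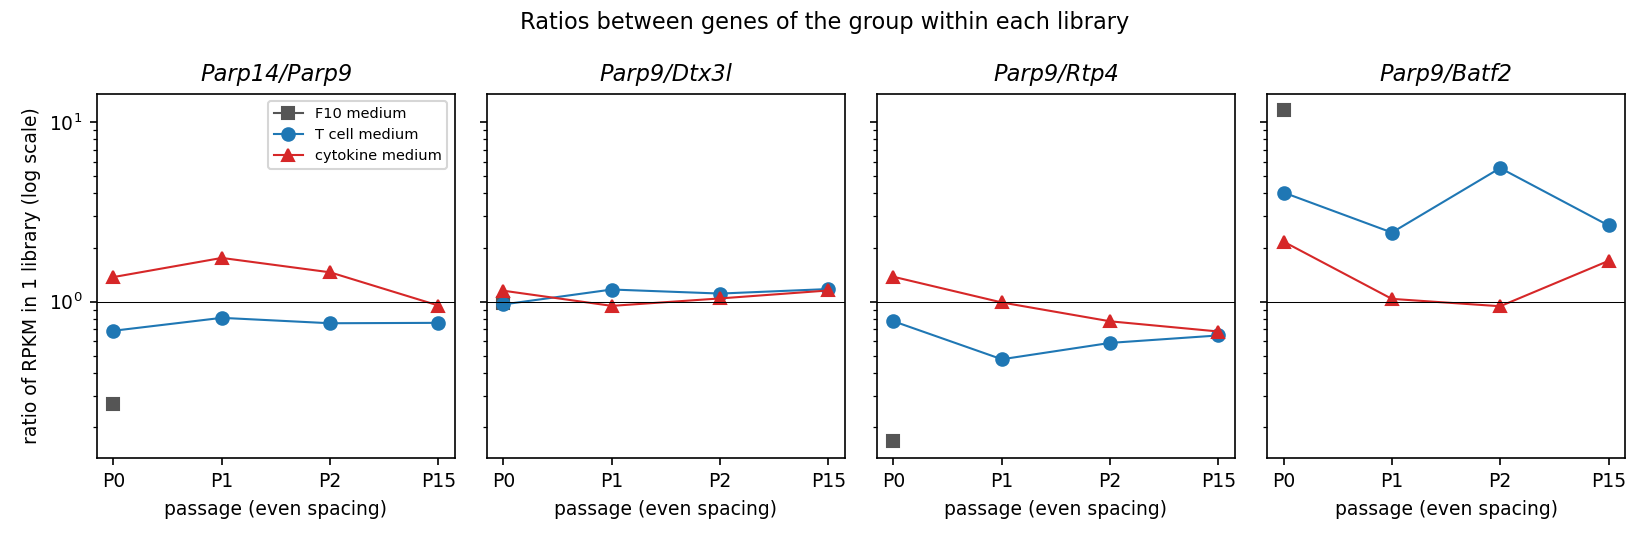
Ratio of RPKM within 1 library (shared log scale) by passage for 4 of the gene pairs, with F10 medium in grey, T cell medium in blue and cytokine medium in red, and lines joining the passages of a medium. Parp14/Parp9 and Parp9/Batf2 separate the media, while Parp9/Dtx3l stays between 0.947 and 1.17 in all 9 libraries.

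Other genes were read from an interferon list of 53, made of receptor and signalling genes and of genes listed as induced. Litaf and Cd80 were in the latter part, not among the signalling genes. Of the 53, 32 were in the table, 11 had usable names and 7 passed the filter. In the comparison of cytokine with T cell medium 3 of these 7 rose and 0 fell in limma, with 1 lower at an unadjusted p under 0.05, and their median was 0.16. Over all rows 5.36% were called higher and 5.73% lower, and 14.1% were lower at an unadjusted p under 0.05. The list was chosen with earlier results of these data known. Socs1, Ifngr2, Litaf and Cd80 had been named in that earlier work, so these counts are a description. Socs1, the feedback inhibitor of JAK kinases, rose by 1.36 ± 0.08 (SE; limma adjusted p = 0.00146), Ifngr2, a chain of the IFN-γ receptor, by 1.01 ± 0.16 (limma adjusted p = 0.0222) and Litaf by 0.78 ± 0.12 (limma adjusted p = 0.0219). The type I interferon receptor chains differed by 0.16 ± 0.09 for Ifnar1 and 0.11 ± 0.07 for Ifnar2 and did not pass (limma adjusted p of 0.282 and 0.305). Il10rb, a receptor chain of the same gene cluster, differed by 0.06 and the costimulatory ligand gene Cd80 by -0.54 (limma adjusted p of 0.731 and 0.058).

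Ciita, the class II transactivator and an IFN-γ target, was below the filter. The F10 library gave 0.0135 RPKM, the T cell libraries 0.637, 0.470, 1.11 and 0.181, and the cytokine libraries 1.37, 1.08, 1.41 and 0.970, each by passage. It was higher in cytokine medium at each passage. Casp4, Casp1 and Cd86 had means of 0.466, 0.0354 and 0.00328 RPKM over the 9 libraries. Of 22 relatives of the 5 genes (other ADP-ribosyltransferases, Deltex ligases, receptor transporters and BATF factors), 15 were in the table and 1 had a usable name. This was Rtp1, at a mean of 0.0305 RPKM beside 15.3 for Rtp4.

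**Figure D5:**
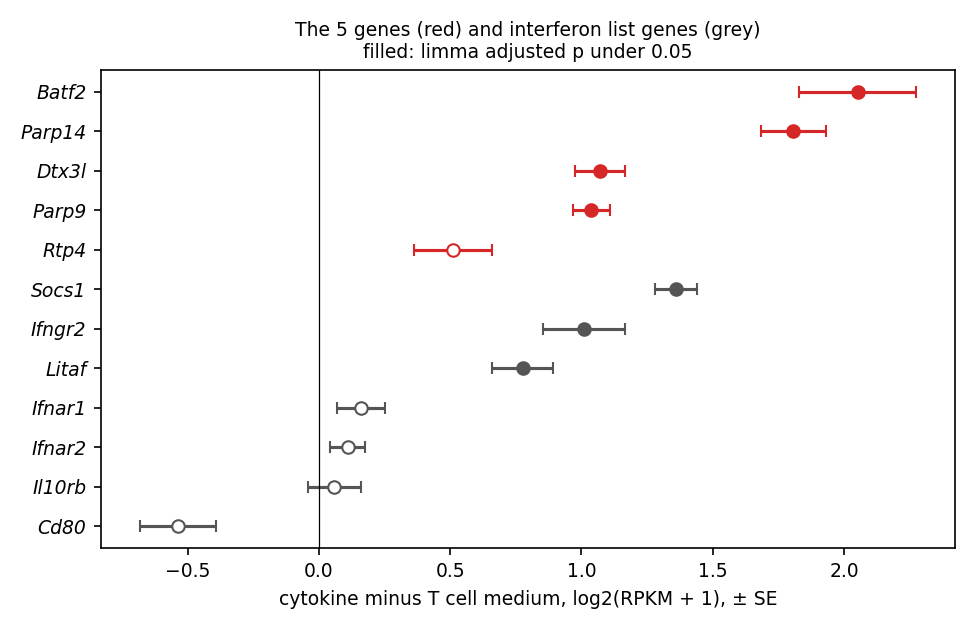
Difference of cytokine minus T cell medium on the log2(RPKM + 1) scale with its standard error, for the 5 genes (red) and the 7 tested genes of the interferon list (grey). Filled points passed limma at an adjusted p under 0.05, and among the red points Rtp4 is the open one.

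The genes with the most similar pattern were named by the Pearson correlation of log2(RPKM + 1) over the 9 libraries, among 496 usable genes past the filter. These are descriptions, and all genes share the same 9 libraries. For Parp14 they were Dexi (0.971), Socs1 (0.953) and Cd47 (0.943), for Parp9 Tvp23a (0.961), Cd47 (0.958) and Nfkbiz (0.930), and for Dtx3l Tvp23a (0.964), Cd47 (0.948) and Dexi (0.941). For Rtp4 they were Casp12 (0.940), Nfkbiz (0.939) and Steap1 (0.927), and for Batf2 Frmd8 (0.9496), Litaf (0.946) and Socs1 (0.944). For Cd47, the surface ligand that inhibits phagocytosis, the F10 library gave 5.62 RPKM, the T cell libraries 10.2, 13.03, 12.8 and 16.04, and the cytokine libraries 15.3, 18.1, 19.7 and 17.3. Dexi was at 3.997 RPKM in F10 medium, 5.28 to 6.01 in T cell medium and 7.39 to 7.78 in cytokine medium. Without F10 medium the gene most like Parp14 was Socs1 (0.958) and that most like Batf2 was Frmd8 (0.956). For Parp9 it was Nxpe3 (0.936), for Dtx3l Atg2a (0.949) and for Rtp4 A330021E22Rik (0.873). None of the 3 genes named above for Rtp4 stayed among its first 3. Cd47 was then not among the first 3 of any of the 5 genes. Dexi and Socs1 stayed among the first 3 of Parp14, Dexi among those of Dtx3l and Frmd8 among those of Batf2, while none stayed for Parp9. The names that did not stay depend on the single F10 library.

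Among the 5 genes themselves, the correlations over the 8 libraries without F10 medium pool media with different means. They were 0.568 to 0.710 for Rtp4 with the other genes and 0.920 to 0.982 among Parp14, Parp9, Dtx3l and Batf2. Within the 4 libraries of a medium the pattern was another one. In T cell medium Batf2 had correlations of 0.27 with Parp14, 0.041 with Parp9, -0.45 with Dtx3l and 0.42 with Rtp4, while Rtp4 had 0.93 with Parp14. In cytokine medium Rtp4 had 0.977 with Parp9 and 0.020 with Parp14, and Parp14 had 0.19 with Parp9. These are descriptions over 4 points each.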

How the data were processed

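Libraries were prepared from total RNA with a TruSeq kit, per the labels' protocols. The authors deposited 1 table of RPKM values with 2 numbered columns per sample, per the file headers. The submitters' processing notes list TopHat2 2.0.1, HTSeq 0.5.4p2 and mm10 and do not say what each did. Nor do the sources used here give the annotation, the strand setting or what sets the 2 columns apart. Their mean was used as 1 sample. Identifiers matched GENCODE vM21 for 11105 of 11148 rows. RPKM are not counts, so log2(RPKM + 1) values were fitted in limma 3.58.1 (R 4.3.3, trend, passage as a block) over 3210 rows with a mean of at least 1 RPKM, with Benjamini-Hochberg adjustment over all of them. The fit was also run on simulated data with noise of the same spread in every row and no passage effect. These settings differ from the data, so that run does not check the calls made here. Reads were recovered from the step of low values and the gene length at which all columns were whole (within 0.02 of a read). They were used for the folds from reads and their intervals, not for the limma fits. The members and lists were chosen with earlier results of these data known, the ratios between genes, and their test paired by passage, after the values were seen. Named genes were the 5 members, the usable genes of the fixed lists and, for each member, the 3 usable genes with the highest correlation. Alternatives were other pseudocounts, filters, scalings, columns and left-out passages.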

Additional observations from a re-analysis of the deposited data

How the results depend on the processing

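The directions of the differences between cytokine and T cell medium held for all 5 genes under the 14 alternatives run, but many of these could not reverse a direction. The filters, the fit without trend and the fit without the passage term left the differences unchanged. Each gene was higher with cytokines at all 4 passages, so another pseudocount or a left-out passage could not turn its sign. The number of called genes stayed at 4 in 12 of the 14 alternatives, was 3 without P1 and 0 with no filter on low values. With no filter the differences were those of the main fit (Parp14 1.81, Parp9 1.04, Dtx3l 1.07, Batf2 2.05). More rows were tested there, and the unadjusted p in limma was also larger. It was 0.000119 against 2.28e-06 for Parp14, 1.95e-05 against 2.27e-06 for Parp9, 0.00023 against 1.26e-05 for Dtx3l and 0.00117 against 4.42e-05 for Batf2. What raised it was not tested. Leaving out 1 passage in turn gave differences of 1.75 to 2.21 for Batf2, 1.70 to 1.95 for Parp14, 0.975 to 1.14 for Dtx3l, 1.02 to 1.09 for Parp9 and 0.33 to 0.64 for Rtp4. Rtp4 passed under none of the alternatives, with adjusted p from 0.0642 to 0.363 in limma. Over all rows, 172 were called higher and 184 lower. These were 0 and 0 of 10934 rows with no filter. With a filter of 5 RPKM they were 128 and 93 of 1351 rows, against 3210 rows in the main fit, and the 5 genes were among those tested. When 1 passage was left out, 8 to 222 rows were called higher and 2 to 258 lower. With no replicate block, that is, without the passage term that pairs the media, the counts were 32 and 24. The cause was not tested. The comparisons with F10 medium moved with the pseudocount, which weighs on genes near 0. At pseudocounts of 0.1 and 0.25, T cell over F10 medium gave log2 differences of 4.59 and 3.81 for Parp14, 3.92 and 3.53 for Parp9, 3.95 and 3.56 for Dtx3l, and 3.74 and 2.75 for Batf2, against 1.35 at a pseudocount of 1. Cytokine over F10 medium gave 6.76 and 5.93 for Parp14, 5.10 and 4.69 for Parp9, 4.88 and 4.48 for Dtx3l, and 5.77 and 4.69 for Batf2, against 2.95. Signs reversed for 5 values, none of which had passed a test. They did so without P0 for Batf2 and Parp9 in the comparison of P15 with P0 to P2 and for Dtx3l in the P15 change, without P2 for Dtx3l in that comparison, and without P1 for the ratio of Parp9 to Dtx3l. When 1 passage was left out in turn, the difference of P15 from P0 to P2 ran from -0.20 to 0.25 for Batf2, from -0.14 to 0.085 for Dtx3l, from -0.015 to 0.22 for Parp9, from 0.023 to 0.55 for Rtp4 and from -0.39 to -0.11 for Parp14. The P15 change of the medium difference ran from -0.95 to -0.28 for Batf2, from -0.048 to 0.20 for Dtx3l, from 0.018 to 0.12 for Parp9, from -0.67 to -0.49 for Parp14 and from 0.63 to 0.83 for Rtp4, and the log2 difference of the ratio of Parp9 to Dtx3l from -0.14 to 0.046. The 0 to 28 reads of 4 of the genes in F10 medium limit the precision of their folds. The 6 ratios that passed unpaired had a p of 0.125 with the passages paired as a replicate block, the smallest that 4 pairs allow.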
